A study of Mus musculus with 12 samples.

Results

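The proteasome genes of mouse LSK cells are described here, taken as every gene whose symbol is Psm followed by a, b, c, d, e or g and a number. This rule found 47 genes among the 55487 listed, all of them protein coding. They are 15 subunits of the 20S core (8 alpha, 4 structural beta and 3 catalytic beta genes), 4 catalytic subunits of the immunoproteasome and thymoproteasome, 17 subunits of the 19S cap (9 of its base and 8 of its lid), 4 activators and 7 assembly chaperones. RNA was sequenced from LSK cells, the lineage-negative, Sca1-positive and c-Kit-positive fraction of bone marrow that holds blood stem cells and early progenitors. There were 4 libraries labelled Yy1-/- Smc3+/-, 4 labelled Yy1-/- and 4 labelled Yy1+/+, the wild-type control. Yy1 encodes the zinc finger transcription factor YY1, and Smc3 encodes a subunit of the cohesin ring. The labels state no treatment, age, sex or day and nothing on how or in which cells the alleles were deleted, and they do not say whether each library is 1 mouse. The p-values below therefore measure the spread between these libraries, part of which may be technical.

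The proteasome degrades proteins marked with ubiquitin. Its core is a barrel of alpha and beta rings with the proteolytic sites inside, and the 19S cap binds the substrate, removes ubiquitin in its lid and unfolds the chain with the ATPases of its base. Interferon induces an alternative set of catalytic subunits that favours peptides for MHC class I, separate activators can take the place of the cap, and dedicated chaperones assemble core and base. In mammals the transcription factor NFE2L1 raises most of these genes together when proteasome activity falls short, and blood stem cells are known for keeping protein synthesis low and for their sensitivity to misfolded protein.

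Summed expected counts lay between 38671354 and 69086104 per library, and Yy1+/+ replicate 2 was the deepest. Yy1 mRNA was low but not absent in the libraries labelled Yy1-/-: it had 0.772, 0.795, 4.45 and 0.944 CPM (counts relative to a TMM-adjusted library size) in Yy1-/- Smc3+/- replicates 1 to 4 and 0.407, 0.996, 5.01 and 12.2 CPM in Yy1-/- replicates 1 to 4, against 33.9 to 41.3 CPM in Yy1+/+. Smc3 mRNA does not set the heterozygous label apart, with 301 ± 38.1 CPM in Yy1-/- Smc3+/-, 255 ± 45.2 in Yy1-/- and 177 ± 25.2 in Yy1+/+ (SD, n = 4 each), higher rather than lower, so that genotype is named as labelled. Of the sort markers, Kit fell in both mutants (log2 fold change -1.65 ± 0.33 SE, edgeR adjusted p = 0.00246, in Yy1-/- Smc3+/-; -2.12 ± 0.33, adjusted p = 0.000455, in Yy1-/-) and Ly6a, the Sca1 gene, was not called in either (adjusted p = 0.414 and 0.215). The first principal component, with 40.6% of the variance, separated the Yy1+/+ libraries from all others.

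A majority of the tested proteasome genes were called higher in each mutant than in wild type, among them 13 of the 15 core genes in Yy1-/- Smc3+/- and 14 of 15 in Yy1-/-. Of the 46 genes that passed the count filter, 24 rose and 2 fell in Yy1-/- Smc3+/-, and 30 rose and 1 fell in Yy1-/- (edgeR quasi-likelihood test, Benjamini-Hochberg adjusted p under 0.05 over 16649 genes). In Yy1-/- Smc3+/- 52.2% of the proteasome genes rose and 4.35% fell, against 13.1% and 16.7% of all genes tested. In Yy1-/- 65.2% of the proteasome genes rose and 2.17% fell, against 16.3% and 18.8% of all genes tested. The median log2 fold change of the 46 genes was 0.43 in Yy1-/- Smc3+/- and 0.57 in Yy1-/-, beside 0.02 and 0.01 over all genes tested. In each comparison 23 of the 46 genes had all 4 mutant libraries above all 4 Yy1+/+ libraries in CPM, a pattern held by 14.7% of all genes for Yy1-/- Smc3+/- and 13.4% for Yy1-/-. Both comparisons use the same 4 Yy1+/+ libraries, so they are not independent of each other. For 12 of the 47 genes, among them Psma3, Psmb5, Psmb7, Psmb9, Psmd1, Psmd11, Psme2 and Psmg3, the expected counts were not whole numbers in 11 or 12 libraries, so part of their reads was shared out with other listed genes. In bulk RNA, fewer cells of a type and less RNA per cell cannot be told apart. Psmb11, the thymoproteasome subunit of thymic epithelium, was the gene left out by the filter, with 0 counts in 11 libraries and 3 counts in Yy1+/+ replicate 4.

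**Figure D1:**
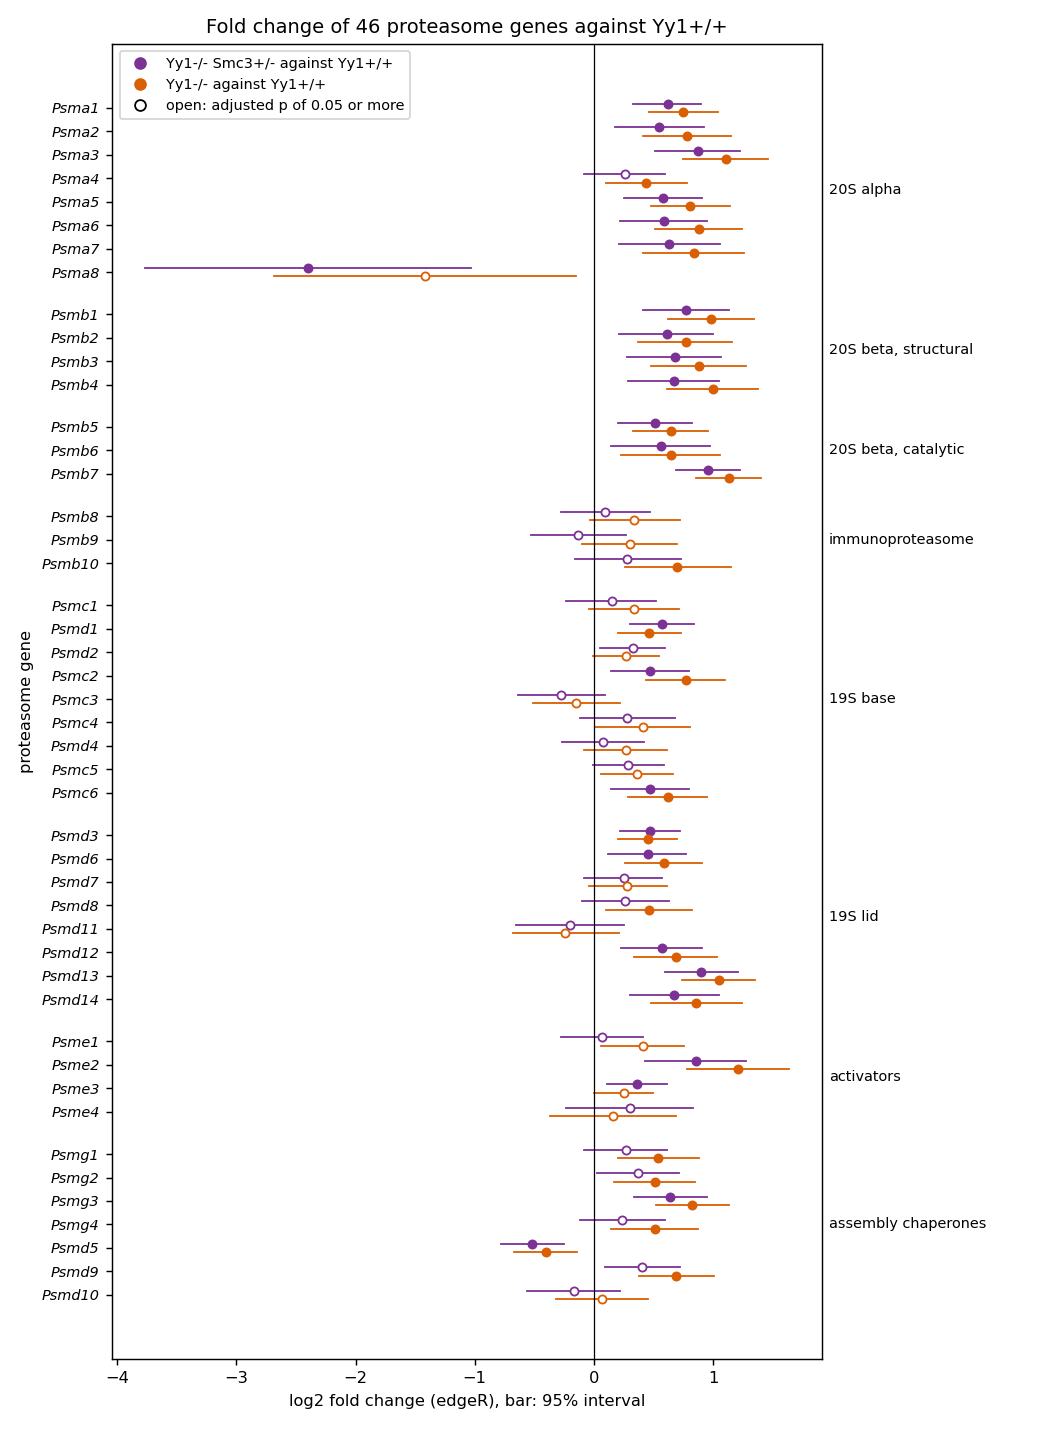
Log2 fold change of 46 proteasome genes against Yy1+/+ (horizontal axis) for Yy1-/- Smc3+/- in purple and Yy1-/- in orange, grouped by role; points are edgeR estimates, bars are 95% intervals and open points were not called. Most points lie to the right of 0, and Psma8, Psmd5, Psmc3 and Psmd11 lie to the left in both comparisons.

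The size of these counts depends on the scale used. On log2(TPM + 1), where each library is corrected for gene length and sums to the same total, limma called 18 proteasome genes higher and 4 lower in Yy1-/- Smc3+/-, and 21 higher and 4 lower in Yy1-/-. On this scale the proteasome medians were 0.24 in Yy1-/- Smc3+/- and 0.28 in Yy1-/-, while the median of all genes itself lay at -0.11 and -0.18. Of all genes 7.8% were called higher and 20.9% lower in Yy1-/- Smc3+/-, and 8.68% and 26.0% in Yy1-/-. The genes called lower on this scale were Psma8, Psmd5, Psmc3 and Psmd10 in Yy1-/- Smc3+/-, and Psma8, Psmd5, Psmc3 and Psmd11 in Yy1-/-. All but 1 of the core genes kept a positive difference on both scales, the exception being Psma8.

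The alpha ring of the core rose almost as a whole. Its members form the gated outer rings of the barrel, through which the substrate enters. Of 8 alpha genes 6 rose and 1 fell in Yy1-/- Smc3+/-, and 7 rose in Yy1-/-. Psma3 (alpha7; chr12:70974621-70996347, GRCm38) had the smallest p of the ring in both comparisons. It measured 439, 387, 417 and 478 CPM in Yy1-/- Smc3+/- and 681, 425, 499 and 426 CPM in Yy1-/-, against 210, 286, 205 and 241 CPM in Yy1+/+. All 8 mutant libraries lay above all wild-type libraries, with Yy1-/- replicate 1 the highest. The log2 fold change was 0.87 ± 0.17 SE in Yy1-/- Smc3+/- (edgeR adjusted p = 0.00181) and 1.11 ± 0.17 in Yy1-/- (edgeR adjusted p = 0.000322). Psma1, Psma2, Psma5, Psma6 and Psma7 rose in both mutants, by 0.55 to 0.63 in Yy1-/- Smc3+/- and by 0.75 to 0.88 in Yy1-/- on the log2 scale. In Yy1-/- Smc3+/- the calls of Psma2, Psma7 and Psma6 were lost under 8, 5 and 3 of 22 alternatives. Psma4 rose in Yy1-/- (0.44 ± 0.16, edgeR adjusted p = 0.0428), a call that ended under 16 of 22 alternatives, and had 0.26 ± 0.16 in Yy1-/- Smc3+/- (adjusted p = 0.235).

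Psma8 went the other way. It encodes alpha4s, a variant of the alpha4 subunit encoded by Psma7 that is known from the testis. It was a weakly expressed gene, with 1.81, 3.88, 2.17 and 2.26 CPM in Yy1-/- Smc3+/- and 0.381, 3.69, 2.74 and 13.3 CPM in Yy1-/-, against 10.5, 19.7, 11.7 and 11.5 CPM in Yy1+/+. All Yy1-/- Smc3+/- libraries and 3 of the 4 Yy1-/- libraries lay below every wild-type library, and Yy1-/- replicate 4 lay among them. Psma8 fell in Yy1-/- Smc3+/- (log2 fold change -2.40 ± 0.63 SE, edgeR adjusted p = 0.0126). In Yy1-/- its log2 fold change was -1.42 ± 0.58 (edgeR adjusted p = 0.0759), and without replicate 4, the library with the most Yy1 reads of its genotype, it was -2.55 (adjusted p = 0.00232). In wild type Psma8 had 14.0 ± 2.89 TPM, against 854 ± 90.8 TPM for Psma7 (SD, n = 4).

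The beta rings carry the proteolytic sites, and on counts all 7 of their constitutive genes rose in both mutants. On log2(TPM + 1) limma called the 4 structural genes higher in both mutants. Of the 3 catalytic genes it called 1 in Yy1-/- Smc3+/- and 3 in Yy1-/-. Among the 4 structural genes, which hold the ring together, Psmb1 (chr17:15475021-15499751) had 430, 331, 376 and 381 CPM in Yy1-/- Smc3+/- and 556, 361, 480 and 362 CPM in Yy1-/-, against 199, 275, 190 and 226 CPM in Yy1+/+. Psmb4 (chr3:94884093-94886961) had 291, 223, 224 and 249 CPM in Yy1-/- Smc3+/- and 414, 229, 342 and 255 CPM in Yy1-/-, against 152, 181, 142 and 146 CPM in Yy1+/+. For both genes the mutant and wild-type libraries did not overlap, and the Yy1-/- libraries spread the most. Psmb1 rose by 0.77 ± 0.17 in Yy1-/- Smc3+/- (edgeR adjusted p = 0.0041) and by 0.98 ± 0.17 in Yy1-/- (edgeR adjusted p = 0.000765). Psmb4 rose by 0.67 ± 0.18 (adjusted p = 0.0128) and 1.00 ± 0.18 (adjusted p = 0.00105), and Psmb2 and Psmb3 rose by 0.61 and 0.68 in Yy1-/- Smc3+/- and by 0.77 and 0.88 in Yy1-/-. The call of Psmb2 in Yy1-/- Smc3+/- was lost under 6 of 22 alternatives.

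Psmb7 (chr2:38588036-38644087), the trypsin-like catalytic subunit beta2, had the smallest p of all proteasome genes in both comparisons. It measured 179, 158, 141 and 173 CPM in Yy1-/- Smc3+/- and 214, 166, 178 and 175 CPM in Yy1-/-, against 84.1, 74.3, 82.3 and 93.3 CPM in Yy1+/+. The lowest mutant library lay well above the highest wild-type library. Psmb7 was 1.95-fold higher in Yy1-/- Smc3+/- (0.96 ± 0.13 on the log2 scale, edgeR adjusted p = 0.000142) and 2.19-fold higher in Yy1-/- (1.13 ± 0.13, edgeR adjusted p = 4.32e-05). It ranked 382nd and 209th by p among the 16649 genes. The library kit does not mark the strand, and 11.8% of the exon bases of Psmb7 overlap exons of Nek6 on the other strand, so reads of the 2 genes cannot be told apart there.

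Psmb5 (chr14:54614119-54618022), the chymotrypsin-like subunit beta5 and the main target of proteasome inhibitor drugs, had 285, 229, 262 and 251 CPM in Yy1-/- Smc3+/- and 316, 212, 318 and 284 CPM in Yy1-/-, against 170, 210, 158 and 182 CPM in Yy1+/+. The groups did not overlap, although Yy1-/- replicate 2 stood just above the highest wild-type library. Psmb5 rose by 0.51 ± 0.14 in Yy1-/- Smc3+/- (edgeR adjusted p = 0.0178) and 0.65 ± 0.14 in Yy1-/- (edgeR adjusted p = 0.00415). These calls were lost under 6 and 1 of 22 alternatives. For Yy1-/- Smc3+/- log2(TPM + 1) was among them (0.32, limma adjusted p = 0.0621). Psmb6 (chr11:70525367-70527858), the caspase-like subunit beta1, had 435, 357, 327 and 356 CPM in Yy1-/- Smc3+/- and 475, 335, 407 and 354 CPM in Yy1-/-, against 207, 367, 199 and 230 CPM in Yy1+/+. Here Yy1+/+ replicate 2 lay among the mutant libraries. Psmb6 rose by 0.56 ± 0.19 in Yy1-/- Smc3+/- (edgeR adjusted p = 0.0435) and 0.65 ± 0.19 in Yy1-/- (edgeR adjusted p = 0.0189), and these calls ended under 17 and 7 of 22 alternatives.

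Because YY1 binds DNA near transcription start sites, the start-site windows of the members were searched for its motif. RefSeq promoter windows (GRCm38.p6, 250 bases before to 50 after the start) were at hand for 39 of the 47 genes. The motif AANATGGCG, read on both strands, was found in 4 of these 39 genes (10.3%), which are Psmb5, Psmb6, Psmc5 and Psmd8, and in 2.76% of the 27025 genes with a window. Those 27025 include genes not tested for expression here, and the shares of all genes for the other motifs have the same base. The shorter form GCCATNTT, whose reverse complement lies inside the first motif, was found in those 4 and in Psma2 and Psma4 (15.4%, against 6.96% of all genes). The stretches with the longer motif are shown to let its place and its neighbours be seen, each on the strand of its gene, with the motif in capitals and with positions counted from the RefSeq start.
Psmb5, motif at -91, chr14:54618068-54618096, minus strand: gcccggagtaAAAATGGCGccgcctccgt
Psmb5, motif at +2, chr14:54617976-54618004, minus strand: gcccttgctaAACATGGCGctggctagcg
Psmb6, motif at +38, chr11:70525384-70525406, plus strand: gtagcagaggAAGATGGCGgccg
Psmc5, motif at +4, chr11:106256178-106256206, plus strand: cgagagagggAAGATGGCGcttgatgggc
Psmd8, motif reversed at -8, chr7:29180663-29180691, minus strand: gacttccgttCGCCATTTTgaatgacagc
Of these 4 genes Psmb5 and Psmb6 rose in both mutants, Psmd8 was called in 1 of them (0.26 ± 0.17, edgeR adjusted p = 0.261, in Yy1-/- Smc3+/-; 0.46 ± 0.17, adjusted p = 0.0489, in Yy1-/-; difference between mutants -0.20, adjusted p = 0.856; the call lost under 18 of 22 alternatives, which are other settings of the fit and libraries left out), and Psmc5 was not called in either (0.29 ± 0.14 and 0.36 ± 0.14, adjusted p = 0.14 and 0.0582). Their log2 fold changes in Yy1-/-, 0.36 to 0.65, lay around the median of the 46 genes, 0.57.

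The same windows were read for letters linked to other regulators. The antioxidant response element TGACNNNGC, bound by NFE2L1 and NFE2L2, was in 6 of 39 genes (15.4%; Psmb5, Psmb6, Psmc6, Psmd9, Psmd12 and Psme4), against 14.0% of all genes. The GAS element TTCNNNGAA was in Psmb8, Psmd2 and Psmg1 (7.69%, against 9.55%), and the interferon-stimulated element TTCNNTTTC in 7 genes, Psme1 among them (17.9%, against 9.76%). The NF-Y box CCAAT was in 14 genes (35.9%, against 41.1%). Motifs were searched on both strands, and a match describes letters, not binding. The 250 bases before the RefSeq start of Psmb5 and of its immunoproteasome counterpart Psmb8 are shown because these genes compete for one place in the core. Psmb5 rose in both mutants while Psmb8 was not called in either over all libraries. Without Yy1+/+ replicate 2 Psmb8 was called in Yy1-/- (0.47, edgeR adjusted p = 0.0487), and the call of Psmb5 in Yy1-/- Smc3+/- was lost under 6 of 22 alternatives. Capitals mark the YY1 motif at -91 and the antioxidant response element at -47 in Psmb5, and the GAS element at -97 in Psmb8. The RefSeq start of Psmb8 lies downstream of its GENCODE start at chr17:34197721, so the stretch shown lies inside the gene as GENCODE places it.
Psmb5, chr14:54617996-54618245, minus strand: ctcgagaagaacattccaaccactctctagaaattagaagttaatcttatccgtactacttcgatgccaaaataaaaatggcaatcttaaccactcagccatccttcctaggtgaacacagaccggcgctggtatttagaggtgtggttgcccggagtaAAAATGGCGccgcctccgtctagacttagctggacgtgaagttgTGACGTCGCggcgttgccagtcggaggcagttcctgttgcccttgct
Psmb8, chr17:34197945-34198194, plus strand: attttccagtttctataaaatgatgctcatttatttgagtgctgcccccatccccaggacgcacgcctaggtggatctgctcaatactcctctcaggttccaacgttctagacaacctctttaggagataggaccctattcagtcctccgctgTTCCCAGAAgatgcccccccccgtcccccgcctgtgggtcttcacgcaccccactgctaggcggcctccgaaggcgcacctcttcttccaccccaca

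Of the 3 immunoproteasome genes tested, 1 rose, Psmb10 in Yy1-/-, and none rose in Yy1-/- Smc3+/-. In wild type Psmb8 had 541 ± 58.6 TPM, Psmb9 245 ± 47.8 TPM and Psmb10 248 ± 17.1 TPM (SD, n = 4), beside 421 ± 16.9, 696 ± 126 and 137 ± 24.5 TPM for Psmb5, Psmb6 and Psmb7, whose places they take. Psmb8 (beta5i; chr17:34197721-34201454) had 666, 529, 482 and 553 CPM in Yy1-/- Smc3+/- and 827, 538, 712 and 574 CPM in Yy1-/-, against 461, 656, 420 and 553 CPM in Yy1+/+. Psmb9 (beta1i; chr17:34181987-34187764) had 206, 162, 141 and 164 CPM in Yy1-/- Smc3+/- and 319, 189, 214 and 184 CPM in Yy1-/-, against 172, 173, 167 and 224 CPM in Yy1+/+. The groups overlapped for both genes. Their log2 fold changes were 0.09 ± 0.17 and -0.13 ± 0.18 in Yy1-/- Smc3+/- (edgeR adjusted p = 0.722 and 0.639) and 0.34 ± 0.17 and 0.30 ± 0.18 in Yy1-/- (edgeR adjusted p = 0.145 and 0.226). Psmb10 (beta2i; chr8:105935735-105938444) had 291, 199, 183 and 208 CPM in Yy1-/- Smc3+/- and 434, 235, 278 and 231 CPM in Yy1-/-, against 180, 200, 156 and 187 CPM in Yy1+/+. It rose in Yy1-/- (0.70 ± 0.21, edgeR adjusted p = 0.0177), where replicate 1 was far above the others, and without that library the value was 0.42 (adjusted p = 0.0706). In Yy1-/- Smc3+/- it had 0.28 ± 0.21 (adjusted p = 0.322).

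Within each library the ratio of an immunoproteasome subunit to its constitutive counterpart does not depend on the scaling between libraries. Psmb8 has an effective length of 1318 bases against 588 for Psmb5, Psmb9 1042 against 488 for Psmb6, and Psmb10 1001 against 850 for Psmb7. Fold changes over all genes moved with length on counts and on TPM, and the part of length in these ratios was not tested. The Psmb8 to Psmb5 ratio of TPM was 1.04, 1.03, 0.825 and 0.983 in Yy1-/- Smc3+/- and 1.17, 1.12, 0.998 and 0.904 in Yy1-/-, against 1.21, 1.39, 1.18 and 1.35 in Yy1+/+. Every mutant library lay below every wild-type library. The mean log2 ratio differed from Yy1+/+ by -0.40 in Yy1-/- Smc3+/- and -0.29 in Yy1-/- (2-sided exact permutation test over 70 splits, p = 0.0286 for each, the smallest p that 4 against 4 can give; adjusted over 9 tests 0.0643 for each). The Psmb10 to Psmb7 ratio averaged 1.14 ± 0.16 in Yy1-/- Smc3+/-, 1.34 ± 0.268 in Yy1-/- and 1.85 ± 0.302 in Yy1+/+ (SD, n = 4 each). Its log2 difference from Yy1+/+ was -0.69 in Yy1-/- Smc3+/- with no overlap (exact permutation p = 0.0286, adjusted 0.0643) and -0.47 in Yy1-/- (exact permutation p = 0.0857, adjusted 0.129). The Psmb9 to Psmb6 ratio was between 0.203 and 0.222 in Yy1-/- Smc3+/- and between 0.244 and 0.316 in Yy1-/-, against 0.389, 0.219, 0.391 and 0.455 in Yy1+/+, where replicate 2 lay among the Yy1-/- Smc3+/- values. Its differences from Yy1+/+ were -0.71 (exact permutation p = 0.0571, adjusted 0.103) and -0.40 (p = 0.143 by the same exact test, adjusted 0.184). Between the mutants this ratio was lower in every Yy1-/- Smc3+/- library (log2 difference -0.31, exact permutation p = 0.0286, adjusted 0.0643). Tests used log2 of TPM + 1, and none of the 9 passed 0.05 after adjustment. Psmb9 shares 5.79% of its exon bases with exons of Tap1 on the other strand, and Psmb8 14.7% with Gm20496 on the other strand. Psmb5 shares 12.1% with Mir686 on its own strand.

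**Figure D2:**
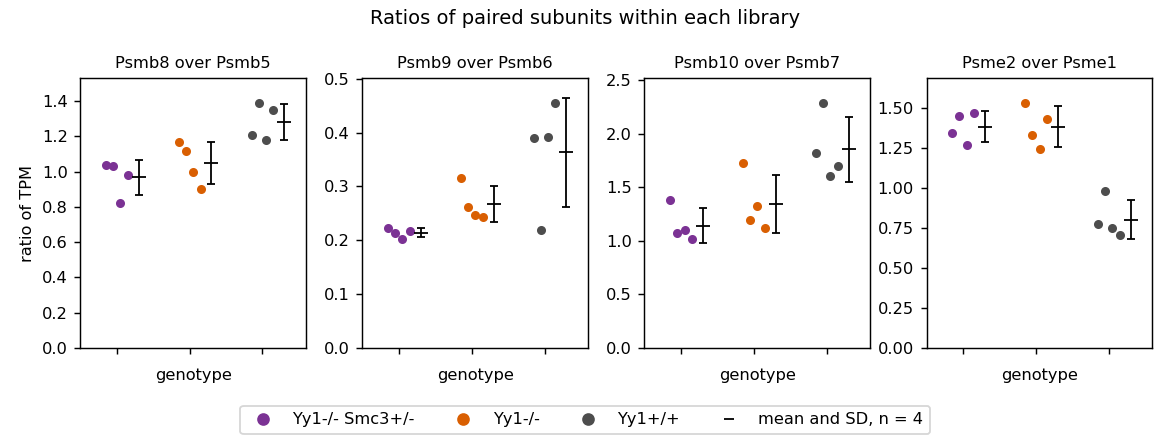
Ratio of TPM between paired subunits in each library (points) with the mean and SD of 4 libraries (black), for Yy1-/- Smc3+/-, Yy1-/- and Yy1+/+ from left to right. The 3 ratios of immunoproteasome to constitutive subunits had lower means in the mutants, and the Psme2 to Psme1 ratio averaged 1.38 in both mutants against 0.801 in Yy1+/+.

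The 19S base holds the 6 ATPases that unfold the substrate (Psmc1 to Psmc6) and the scaffold and receptor subunits Psmd1, Psmd2 and Psmd4, and 3 of these 9 genes rose in each mutant, namely Psmc2, Psmc6 and Psmd1. Psmc2 (chr5:21785283-21803787), the base gene with the smallest p in Yy1-/-, had 266, 241, 249 and 242 CPM in Yy1-/- Smc3+/- and 377, 253, 332 and 264 CPM in Yy1-/-, against 173, 228, 156 and 163 CPM in Yy1+/+. It rose by 0.47 ± 0.15 in Yy1-/- Smc3+/- (edgeR adjusted p = 0.0334) and 0.77 ± 0.15 in Yy1-/- (edgeR adjusted p = 0.00208). In Yy1-/- Smc3+/- the call of Psmc2 was lost under 11 of 22 alternatives and that of Psmc6 under 12, with adjusted p up to 0.10 and 0.178. Psmd1 (chr1:86064387-86139151), the large scaffold protein of the base, had 398, 375, 337 and 325 CPM in Yy1-/- Smc3+/- and 372, 289, 348 and 323 CPM in Yy1-/-, against 222, 284, 237 and 223 CPM in Yy1+/+. It rose by 0.57 ± 0.12 (edgeR adjusted p = 0.00425) and 0.46 ± 0.12 (edgeR adjusted p = 0.0113), and the call in Yy1-/- ended on the TPM scale (0.19, adjusted p = 0.183).

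The other base genes were not called on counts, and Yy1+/+ replicate 2 stood apart for most of them. That library was the highest of its genotype for all 9 base genes, with 423 CPM of Psmc1 against 252 to 265 in the other wild-type libraries and 302 CPM of Psmc4 against 167 to 184. Without it Psmc4 rose in both mutants (0.52 in Yy1-/- Smc3+/-, adjusted p = 0.0115; 0.65 in Yy1-/-, adjusted p = 0.00303), as did Psmc5 (0.43, adjusted p = 0.0177; 0.50, adjusted p = 0.00631) and Psmd2 (0.44, adjusted p = 0.01; 0.39, adjusted p = 0.0164), while Psmc1 and the ubiquitin receptor gene Psmd4 were called in Yy1-/- (0.55 and 0.44, adjusted p = 0.00812 and 0.024) and had 0.36 and 0.25 in Yy1-/- Smc3+/- (adjusted p = 0.0611 and 0.179). For these 2 genes the difference between the mutants was not called (-0.19 for each, adjusted p = 0.722). Psmc3 had log2 fold changes below 0 in both mutants, with 287, 218, 257 and 206 CPM in Yy1-/- Smc3+/- and 291, 206, 275 and 285 CPM in Yy1-/-, against 249, 389, 263 and 270 CPM in Yy1+/+. It was not called on counts (-0.28 ± 0.17 and -0.15 ± 0.17, edgeR adjusted p = 0.242 and 0.529) and was called lower on log2(TPM + 1) (-0.45 and -0.41, limma adjusted p = 0.0261 and 0.0334). Of its exon bases 8.25% overlap exons of Slc39a13 on the other strand.

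The lid, which holds the deubiquitinase PSMD14 and its scaffold, rose in 5 of 8 genes in Yy1-/- Smc3+/- and 6 of 8 in Yy1-/-. Psmd13 (chr7:140881968-140898643), a scaffold subunit, led it in both comparisons, with 274, 237, 224 and 247 CPM in Yy1-/- Smc3+/- and 331, 220, 290 and 244 CPM in Yy1-/-, against 126, 150, 131 and 117 CPM in Yy1+/+. All mutant libraries lay above all wild-type libraries. Psmd13 was 1.87-fold higher in Yy1-/- Smc3+/- (0.90 ± 0.14, edgeR adjusted p = 0.00046) and 2.07-fold higher in Yy1-/- (1.05 ± 0.14, edgeR adjusted p = 0.000154), with 10.1% of its exon bases shared with Sirt3 on the other strand. Psmd14 rose by 0.67 ± 0.18 and 0.86 ± 0.18, Psmd12 by 0.57 ± 0.16 and 0.69 ± 0.16, Psmd3 by 0.47 ± 0.12 and 0.45 ± 0.12 and Psmd6 by 0.45 ± 0.15 and 0.59 ± 0.15 in Yy1-/- Smc3+/- and Yy1-/- in turn. The call of Psmd6 in Yy1-/- Smc3+/- (edgeR adjusted p = 0.0386) was lost under 14 of 22 alternatives, with adjusted p up to 0.105. The calls of Psmd3 were lost on log2(TPM + 1) in both mutants (0.28 and 0.17, limma adjusted p = 0.133 and 0.355). In Yy1-/- the Psmd3 call was also lost without the 3 mutant libraries with the most Yy1 reads (0.26, edgeR adjusted p = 0.196). Psmd7 was not called in either (0.25 and 0.28).

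Psmd11 (chr11:80428615-80473248), the lid scaffold known in human stem cells for promoting assembly of cap and core, was not among the lid genes called higher. It had 140, 137, 257 and 165 CPM in Yy1-/- Smc3+/- and 147, 134, 215 and 187 CPM in Yy1-/-, against 200, 236, 180 and 188 CPM in Yy1+/+. The mutant libraries split: the highest were Yy1-/- Smc3+/- replicate 3 and Yy1-/- replicates 3 and 4, the 3 mutant libraries with the most Yy1 reads. Over all libraries Psmd11 was not called (-0.20 ± 0.21 and -0.24 ± 0.21, edgeR adjusted p = 0.501 and 0.406). Without those 3 libraries it fell in both mutants (-0.49, adjusted p = 0.0292, in Yy1-/- Smc3+/-; -0.55, adjusted p = 0.0294, in Yy1-/-) by edgeR, an alternative chosen after the data were seen. Over its 22 alternatives the adjusted p ranged from 0.0292 to 0.757 in Yy1-/- Smc3+/- and from 0.0294 to 0.94 in Yy1-/-. Psmd11, Psmc3 and the genes called only without a library are outside the rule for named genes and were picked after their values were seen.

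**Figure D3:**
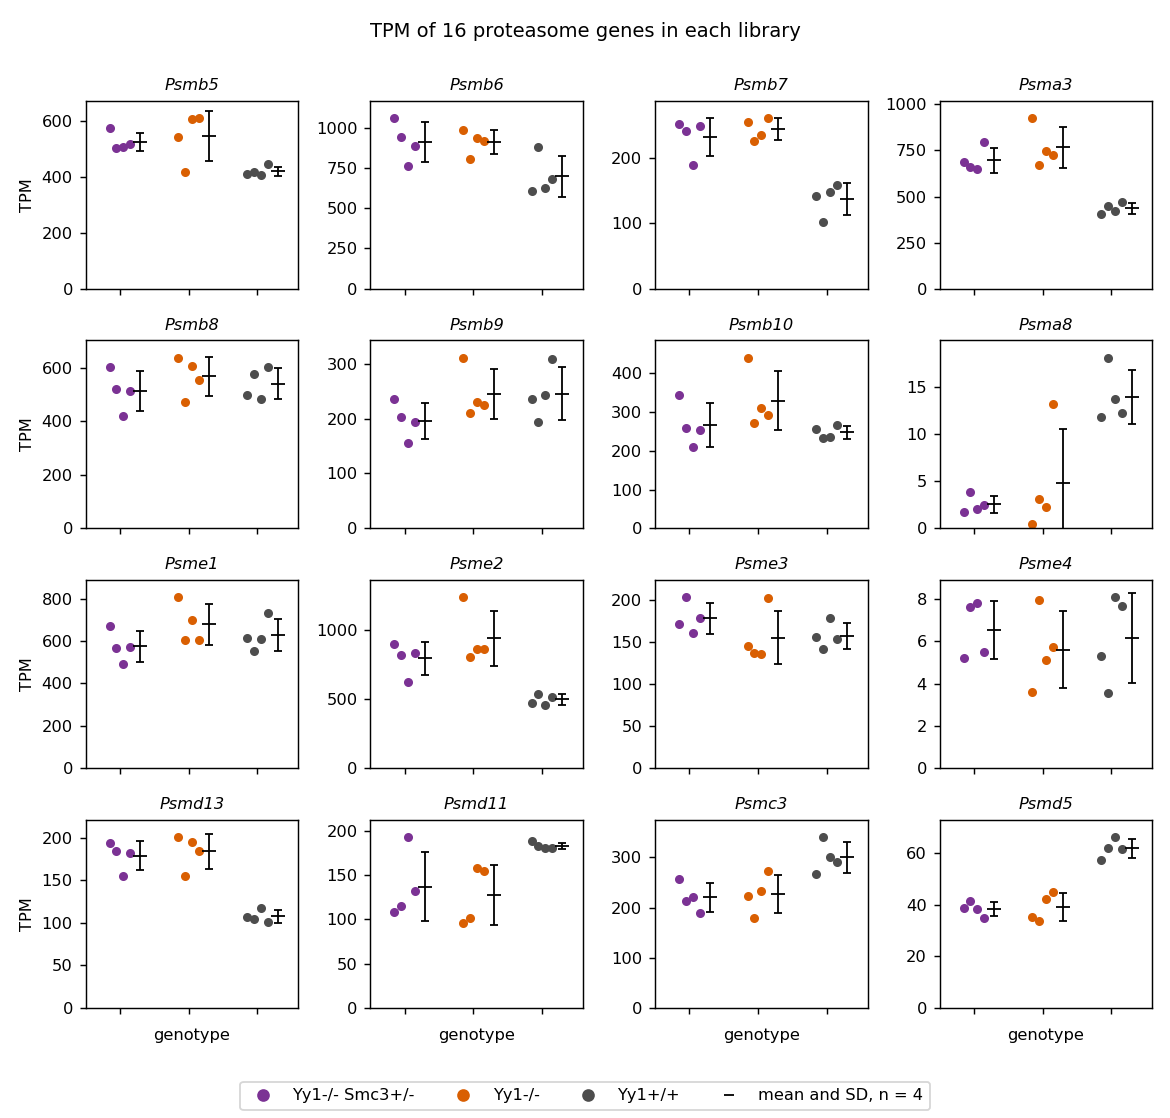
TPM of 16 proteasome genes in each of 12 libraries (points) with the mean and SD of 4 libraries (black), for Yy1-/- Smc3+/-, Yy1-/- and Yy1+/+ from left to right; each vertical axis starts at 0. Psma3, Psmb7, Psme2 and Psmd13 have every mutant library above every wild-type library, and Psma8 and Psmd5 are low in the mutants apart from Psma8 in Yy1-/- replicate 4, where the SD bar of the genotype runs below the axis.

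Of the 4 activators, only Psme2 rose in both mutants. Psme1 and Psme2 encode the alpha and beta subunits of PA28, the interferon-inducible ring that opens the core, Psme3 encodes its nuclear relative PA28 gamma, and Psme4 encodes PA200, which acts on histones. Psme2 (chr14:55587441-55591113) had 415, 348, 303 and 373 CPM in Yy1-/- Smc3+/- and 669, 375, 419 and 373 CPM in Yy1-/-, against 182, 252, 165 and 196 CPM in Yy1+/+. The groups did not overlap. Psme2 rose by 0.86 ± 0.20 in Yy1-/- Smc3+/- (edgeR adjusted p = 0.00602) and by 1.21 ± 0.20 in Yy1-/- (2.31-fold, edgeR adjusted p = 0.000616), the largest rise of any proteasome gene in Yy1-/-. Its close copy Psme2b, counted apart, rose too (0.77 ± 0.19 and 1.12 ± 0.19, edgeR adjusted p = 0.00917 and 0.000831), so the split of reads between them is uncertain.

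Its partner Psme1 (chr14:55578123-55581529), which lies nearby, had 453, 351, 346 and 376 CPM in Yy1-/- Smc3+/- and 637, 418, 498 and 382 CPM in Yy1-/-, against 345, 381, 323 and 409 CPM in Yy1+/+. The groups overlapped, and Psme1 was not called (0.07 ± 0.16, edgeR adjusted p = 0.789; 0.41 ± 0.16, edgeR adjusted p = 0.0641). In Yy1-/- it was called without replicate 2 (0.47, adjusted p = 0.0496) and without replicate 4 (0.48, adjusted p = 0.0367). In the plot of subunit ratios the Psme2 to Psme1 ratio of TPM was 1.27 to 1.47 in Yy1-/- Smc3+/- and 1.24 to 1.53 in Yy1-/-, against 0.705 to 0.978 in Yy1+/+, a description with no test. Psme3 had 339, 366, 327 and 343 CPM in Yy1-/- Smc3+/- and 335, 280, 285 and 373 CPM in Yy1-/-, against 258, 287, 277 and 250 CPM in Yy1+/+. It rose in Yy1-/- Smc3+/- (0.36 ± 0.12, edgeR adjusted p = 0.0321) and had 0.25 ± 0.12 in Yy1-/- (adjusted p = 0.111). The call in Yy1-/- Smc3+/- was lost under 12 of 22 alternatives, log2(TPM + 1) among them (0.18, limma adjusted p = 0.357). Psme4 was low, with 27.2, 36.1, 41.9 and 27.9 CPM in Yy1-/- Smc3+/- and 21.8, 42.8, 28.0 and 27.9 CPM in Yy1-/-, against 23.1, 19.1, 33.1 and 33.0 CPM in Yy1+/+, and was not called (0.30 and 0.16, edgeR adjusted p = 0.381 and 0.637).

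The assembly chaperones did not move as one. Psmg1 to Psmg4 encode the proteins that build the alpha ring, and Psmd5, Psmd9 and Psmd10 encode chaperones of the ATPase base. Psmg3 (chr5:139823592-139826885) had 83.8, 63.8, 64.4 and 67.3 CPM in Yy1-/- Smc3+/- and 90.2, 63.4, 81.6 and 81.2 CPM in Yy1-/-, against 42.2, 43.7, 44.7 and 48.3 CPM in Yy1+/+. It rose by 0.64 ± 0.14 in Yy1-/- Smc3+/- (edgeR adjusted p = 0.00418) and 0.82 ± 0.14 in Yy1-/- (edgeR adjusted p = 0.000766). Psmg1, Psmg2, Psmg4 and Psmd9 rose in Yy1-/- by 0.51 to 0.69 and had 0.24 to 0.40 in Yy1-/- Smc3+/-, where none was called. Between the mutants none of them differed by the test (-0.14 to -0.29, edgeR adjusted p = 0.76 to 0.897). The Yy1-/- calls of Psmg1, Psmg2 and Psmg4 were lost under 6, 8 and 12 of 22 alternatives, log2(TPM + 1) among them. For Psmg2 and Psmd9 all Yy1-/- Smc3+/- libraries lay above all Yy1+/+ libraries (edgeR adjusted p = 0.092 and 0.0546). Psmd10, which encodes gankyrin, had -0.17 and 0.07. Psmd9 shares 25.5% of its exon bases with Gm26745 on the other strand, and Psmg3 9.68% with Gm26938 on its own strand.

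Psmd5 (chr2:34849734-34874968) fell in both mutants. Its protein, S5b, holds a subset of the ATPases during assembly of the base and is also known in mammals as an inhibitor of the finished cap and core. It had 134, 131, 136 and 117 CPM in Yy1-/- Smc3+/- and 141, 120, 153 and 145 CPM in Yy1-/-, against 165, 220, 179 and 176 CPM in Yy1+/+. All mutant libraries lay below all wild-type libraries. The log2 fold change was -0.52 ± 0.12 in Yy1-/- Smc3+/- (edgeR adjusted p = 0.00726) and -0.40 ± 0.12 in Yy1-/- (edgeR adjusted p = 0.0212). In Yy1-/- the call was lost under 3 of 22 alternatives. It was lost without replicate 2 (-0.34, edgeR adjusted p = 0.0556) and without replicates 1 and 2 (-0.34, adjusted p = 0.108). It was also lost with only the libraries of the 2 genotypes in the fit (-0.40, edgeR adjusted p = 0.0521). On log2(TPM + 1) the log2 fold change of Psmd5 was -0.66 in Yy1-/- (limma adjusted p = 0.000918). Psmd5 is also the longest of the assembly chaperones, at an effective length of 4087 bases.

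Per unit of length, the median core mRNA stood above the median cap mRNA in every library. The 14 core genes other than Psma8 spanned 6.39-fold to 9.7-fold from the lowest to the highest TPM within a library, with Psma7 at 1180 ± 207 TPM in Yy1-/- Smc3+/-, 1260 ± 216 in Yy1-/- and 854 ± 90.8 in Yy1+/+ (SD, n = 4 each). The median of these 14 genes was 537 to 606 TPM in Yy1-/- Smc3+/- and 483 to 656 TPM in Yy1-/-, against 409 to 459 TPM in Yy1+/+. The median of the 17 cap genes was 222 to 251 TPM in Yy1-/- Smc3+/- and 199 to 253 TPM in Yy1-/-, against 180 to 210 TPM in Yy1+/+. Core medians of both mutants lay above those of wild type, while the cap medians did so in Yy1-/- Smc3+/- and overlapped in Yy1-/-. The core median was 2.42 to 2.46 times the cap median in Yy1-/- Smc3+/- and 2.43 to 2.81 times in Yy1-/-, against 1.98 to 2.55 times in Yy1+/+. Summed over all 47 genes the level was 15100 ± 1290 TPM in Yy1-/- Smc3+/-, 16100 ± 1930 in Yy1-/- and 12400 ± 652 in Yy1+/+. The lowest mutant library, Yy1-/- replicate 2 at 13440 TPM, exceeded the highest wild-type library, replicate 2 at 13060 TPM, by little.

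**Figure D4:**
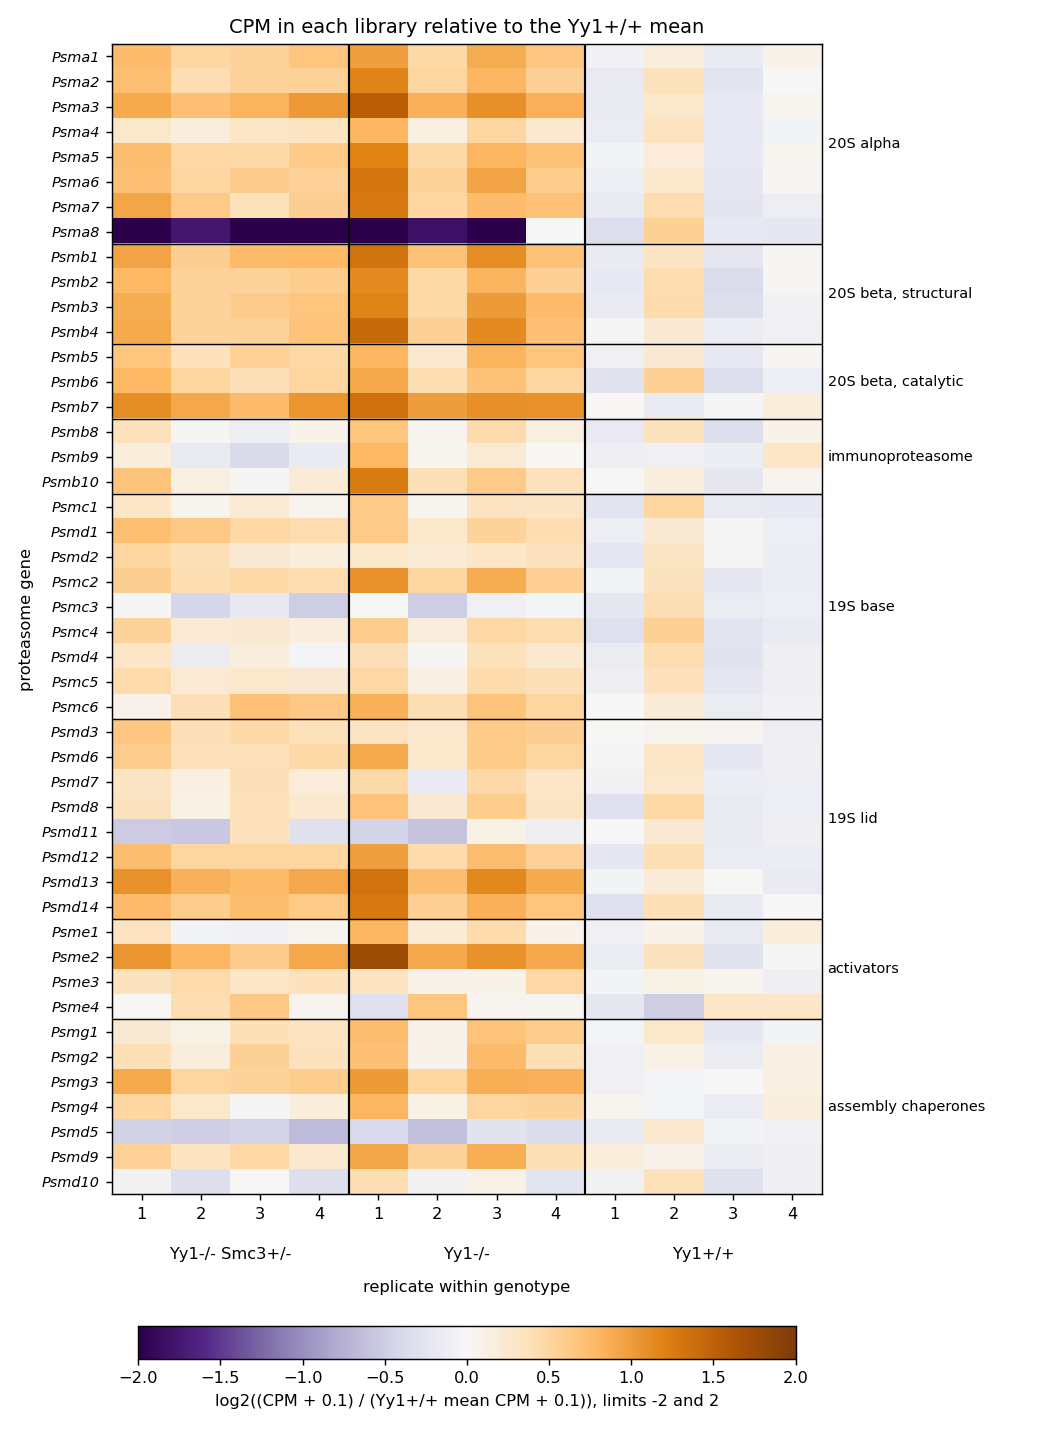
CPM of 46 proteasome genes in each of 12 libraries relative to the Yy1+/+ mean on a log2 scale with limits at -2 and 2, with genes in rows by role and replicates in columns for Yy1-/- Smc3+/-, Yy1-/- and Yy1+/+. The core rows other than Psma8 are high across both mutants, most of all in Yy1-/- replicate 1, and Yy1+/+ replicate 2 is the highest wild-type column for 38 of the 46 genes.

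The libraries of a genotype differed in step across most proteasome genes. Yy1-/- Smc3+/- replicate 1 was the highest of its genotype for 33 of the 46 genes, Yy1-/- replicate 1 for 37 and Yy1+/+ replicate 2 for 38, while Yy1-/- replicate 2 was the lowest of its genotype for 38. Without Yy1-/- replicate 1 there were 23 rises in Yy1-/-, and without Yy1+/+ replicate 2 there were 28 in Yy1-/- Smc3+/- and 35 in Yy1-/-. The count in Yy1-/- Smc3+/- fell to 13, 14 and 15 without Yy1+/+ replicates 1, 3 and 4, and without the 3 mutant libraries with the most Yy1 reads 13 rose in Yy1-/- Smc3+/- and 20 in Yy1-/-. Marker genes of other cells moved with some of these libraries. The summed CPM of 18 monocyte and dendritic cell markers was 10500 and 6520 in Yy1-/- replicates 1 and 2, against 1150 to 2700 in the other 10 libraries, and that of 25 interferon-stimulated genes was 5260 and 3470, against 1330 to 2450. No marker of these lists was at 0 in all libraries, and 7 of the 18 monocyte markers and 3 of the 25 interferon genes rose in Yy1-/- Smc3+/-, where 2 interferon genes fell, against 13 and 10 in Yy1-/-. Without both libraries 25 proteasome genes rose and 0 fell in Yy1-/-. The 15 genes induced by tissue dissociation summed to 11200, 28000, 1000 and 8600 CPM in Yy1+/+ replicates 1 to 4. They summed to 1390 to 8580 CPM in Yy1-/- Smc3+/- and 751 to 4480 CPM in Yy1-/-. Of them 2 were lower in Yy1-/- Smc3+/- and 8 in Yy1-/-, with median log2 fold changes of -1.3 and -2.65, and 0 were higher in either. The 20 mitosis genes summed to 4550 to 5280 CPM in Yy1-/- Smc3+/- and 4280 to 5290 CPM in Yy1-/-, against 1870 to 3110 CPM in Yy1+/+, and the 10 stem cell markers to 1860 to 2240 and 1780 to 2140 CPM, against 3680 to 4040 CPM, with 20 and 19 mitosis genes higher and 7 and 8 stem cell markers lower. Among all genes tested 13.1% were higher and 16.7% lower in Yy1-/- Smc3+/-, and 16.3% and 18.8% in Yy1-/-. The interferon and dissociation counts in Yy1-/- Smc3+/- were near or below these shares. What part these differences in markers of cell types, division and handling had in the proteasome values was not tested. Of the other lists, the 15 neutrophil markers summed to 2050 to 17800 CPM in Yy1-/- Smc3+/- and 4810 to 7950 CPM in Yy1-/-, against 2750 to 10800 CPM in Yy1+/+, with 3 and 5 markers higher and 0 lower. The 14 T and NK cell markers summed to 132 to 349 and 74.9 to 265 CPM, against 188 to 394 CPM, with 6 of the 13 tested higher and 1 lower in each mutant. Those higher were Cd3d, Cd3e, Cd3g, Trac, Il7r and Gzmb, each with a mean of at most 17.8 CPM. The 10 B cell markers summed to 110 to 260 and 57.1 to 131 CPM, against 220 to 288 CPM. Of the 8 tested, Ebf1 (2.76) and Cd79a (1.17) rose in Yy1-/- Smc3+/- and Dntt fell in Yy1-/- (-2.32). The 8 plasma cell markers summed to 2690 to 4390 and 1220 to 3770 CPM, against 988 to 3660 CPM, with 2 higher and 1 lower in Yy1-/- Smc3+/- and 1 lower in Yy1-/-. The 13 erythroid markers summed to 237 to 646 and 193 to 1030 CPM, against 1750 to 2640 CPM, with 4 and 3 lower. Of 9 megakaryocyte markers 4 and 5 were lower, of 8 mast cell, basophil and eosinophil markers 5 in each mutant, and of 5 stromal and endothelial markers 1 in each, with 1 stromal marker higher in Yy1-/-. In lists so short, the stromal counts and the neutrophil counts in Yy1-/- Smc3+/- were near the shares of all genes. So were the erythroid, B cell and plasma cell counts in Yy1-/-. The part of all these markers in the proteasome values was not tested either.

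Gene length moved with the result as well. All genes tested were put into 4 classes of equal size by effective length. The shortest class (up to 1203 bases) had a median log2 fold change of 0.26 in Yy1-/- Smc3+/- and 0.33 in Yy1-/-, and the longest class -0.11 and -0.22. Of the 46 proteasome genes 26 lay in the shortest class. There, 14 of the 26 rose in Yy1-/- Smc3+/- and 20 in Yy1-/-, against 18.7% and 26.0% of all genes in that class, and the medians were 0.48 and 0.65. In class 2, 7 of 13 rose in each mutant, against 14.3% and 18.0% of all genes. Classes 3 and 4 held 5 and 2 proteasome genes. On log2(TPM + 1) the medians over all genes still fell with length. From the shortest to the longest class they were 0.06, -0.11, -0.17 and -0.19 in Yy1-/- Smc3+/-. In Yy1-/- they were 0.04, -0.15, -0.27 and -0.31. The part of length in the proteasome counts was not tested beyond these values.

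**Figure D5:**
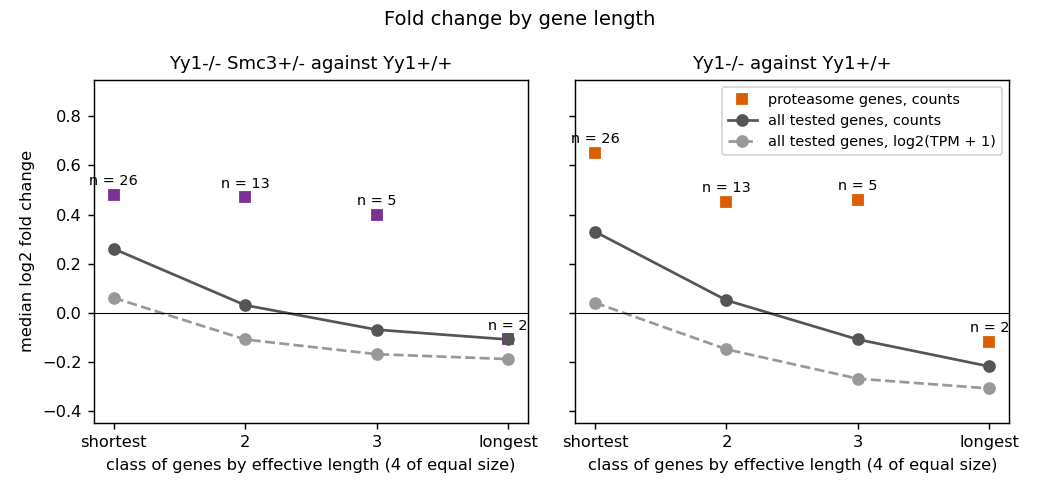
Median log2 fold change against Yy1+/+ by class of effective gene length (4 classes of equal size), for Yy1-/- Smc3+/- (left) and Yy1-/- (right), over proteasome genes (squares, with their number) and over all tested genes on counts and on log2(TPM + 1) (circles). Proteasome medians lie above those of all genes in the 3 shorter classes; the longest class holds 2 proteasome genes.

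Between the 2 mutants no proteasome gene differed by the test. Of all genes 0.036% (6 of 16649) were called by edgeR in Yy1-/- Smc3+/- against Yy1-/-, and 54 by DESeq2, with 0 proteasome genes by either. At an unadjusted p under 0.05 edgeR had 1 of the 46 proteasome genes, Psmb9 (-0.43 ± 0.18, adjusted p = 0.756), and DESeq2 had 2, Psmb9 and Psme1. The log2 fold change was below 0 for 40 of the 46 genes, with a median of -0.19 beside 0.00 over all genes, and on log2(TPM + 1) the medians were -0.08 and 0.06. Without Yy1-/- replicate 1, the library highest for 37 genes, the median on counts was -0.09. For Psmb7 the 95% interval of the difference was -0.44 to 0.10, for Psma3 -0.59 to 0.12 and for Psmd5 -0.38 to 0.15, and the 4 libraries against 4 did not resolve differences within these intervals.

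Genes that work with the proteasome were read against the shares of all genes tested, 13.1% higher and 16.7% lower in Yy1-/- Smc3+/- and 16.3% and 18.8% in Yy1-/-. Of 13 partner genes 4 rose in each mutant. In Yy1-/- Smc3+/- 1 fell and in Yy1-/- 2 fell, counts near or below the shares of all genes in so short a list. The genes that rose were Sem1, which encodes the smallest lid subunit (0.82 ± 0.14 and 1.02 ± 0.14, edgeR adjusted p = 0.000735 and 0.000152), the cap deubiquitinase genes Uchl5 (0.59 and 0.64) and Usp14 (0.41 and 0.45), and Psme2b. Zfand5, an activator of the cap, fell in both (-0.37 and -0.46), and Akirin2, which brings proteasomes into the nucleus, fell in Yy1-/- (-0.59 ± 0.18, edgeR adjusted p = 0.0202). Pomp, which matures the core, measured 175 ± 11.8 CPM in Yy1-/- Smc3+/-, 218 ± 42.1 in Yy1-/- and 163 ± 36.3 in Yy1+/+ and was not called. Of 9 genes around NFE2L1, Ddi2, the protease that activates it (0.69 ± 0.15 and 0.68 ± 0.15, edgeR adjusted p = 0.00503 and 0.00433), and its partner Mafg (0.66 and 0.64) rose in both mutants, Keap1 (-0.37 and -0.40) and Maff (-2.38 and -2.90) fell in both and Mafk fell in Yy1-/- (-0.95). The wild-type libraries were widely spread for Maff, with 1.85 ± 0.957 CPM in Yy1-/- Smc3+/- and 1.31 ± 0.24 in Yy1-/-, against 9.56 ± 11.3 in Yy1+/+ (SD, n = 4 each), and for Mafk, with 72.5 ± 5.02 CPM in Yy1-/-, against 140 ± 92.9 in Yy1+/+. Nfe2l1 itself had 97.5 ± 29.0 CPM in Yy1-/- Smc3+/-, 77.8 ± 20.1 in Yy1-/- and 109 ± 21.9 in Yy1+/+ and was not called.

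Other large complexes and the p97 and ubiquitin shuttle genes were read beside these. In each mutant 4 of 8 CCT chaperonin genes rose and 0 fell, led by Tcp1 (0.65 and 0.78). Of 9 genes of the COP9 signalosome, the relative of the lid, 4 rose in each mutant, with the smallest p for Cops7b (0.76) in Yy1-/- Smc3+/- and Cops5 (0.98) in Yy1-/-. Of 13 genes of eIF3, the initiation factor that shares the fold of the lid, 5 rose in Yy1-/- Smc3+/- and 8 in Yy1-/-, led by Eif3h (0.65 and 0.90). Their medians were 0.34, 0.19 and 0.35 in Yy1-/- Smc3+/- and 0.47, 0.18 and 0.46 in Yy1-/-. Of 13 genes of p97 and ubiquitin shuttles 2 rose and 1 fell in Yy1-/- Smc3+/- and 1 rose and 2 fell in Yy1-/-, counts near or below the shares of all genes, with Ubqln2 falling in both (-1.43 and -2.15).

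The immunoproteasome supplies peptides to MHC class I. Of 16 genes of this pathway 7 fell and 0 rose in Yy1-/- Smc3+/-, where 16.7% of all genes fell. In Yy1-/- 4 fell, near the 18.8% of all genes, and 1, Tapbpl, rose. H2-Q6 fell to 77.4 ± 15.7 CPM in Yy1-/- Smc3+/- and 93.1 ± 10.6 in Yy1-/-, against 523 ± 65.2 in Yy1+/+ (SD, n = 4 each; log2 fold change -2.76 ± 0.16 and -2.49 ± 0.16, edgeR adjusted p = 5.33e-07 and 1.33e-06). H2-Q7 fell by 2.09 on the log2 scale in Yy1-/- Smc3+/- and by 1.70 in Yy1-/-, and these 2 neighbours of one gene family may share reads. H2-K1, the classical class I gene, fell to 1310 ± 158 and 1630 ± 169 CPM, against 2580 ± 299 CPM in Yy1+/+. Tap2, a subunit of the peptide transporter, fell in both mutants (-0.75 and -0.80), while Psmb8 and Psmb9, which lie in the same stretch of the MHC, were not called in either. Tap1, the other transporter gene, fell in Yy1-/- Smc3+/- (-0.57, edgeR adjusted p = 0.0297) and was not called in Yy1-/- (-0.29, adjusted p = 0.228). Between the mutants Tap1 was not called (-0.28, edgeR adjusted p = 0.819).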

How the data were processed

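RNA of LSK cells was prepared with the RNeasy Micro and SMART-Seq v4 kits, which do not mark the strand, per the labels' protocols. The deposited tables hold RSEM expected counts and TPM per gene, per the file headers; STAR 2.5.2b, RSEM 1.3.0 and mm10 are named in the submitters' processing notes. Gene symbols and coordinates came from GENCODE (GRCm38).

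Expected counts were rounded to whole numbers. Genes passing edgeR's filterByExpr (minimum count 10, total 15; 16649 genes) were scaled by TMM and fitted over all 12 libraries by genotype with edgeR 4.0.16's quasi-likelihood test in R 4.3.3, with Benjamini-Hochberg adjustment at 0.05. The design has no block, since the labels give no pairing. limma 3.58.1 on log2(TPM + 1) and DESeq2 1.42.0 were alternatives, beside other filters, scalings and leaving out each library; 2 alternatives, leaving out 3 libraries with Yy1 reads and Yy1-/- replicates 1 and 2, were added after the data were seen. The code was tested on simulated data. Ratios were tested by exact permutation.

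The members, gene lists and tests were chosen with earlier results of these data known. Values in every library are given for the catalytic pairs, the activators, the gene of each role with the smallest p or largest fold change in each comparison with Yy1+/+, and genes that changed against the majority.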

Additional observations from a re-analysis of the deposited data

Results flagged for a closer look

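In 12 of the 150 groups of 4 libraries examined over the proteasome genes, 1 library lay farther from the others than Dixon's 95% critical value for 4 samples allows, which chance gives in about 1 in 20 groups. Yy1+/+ replicate 2 was the high library in 8 of them: Psmc1 had 423 CPM, against 252 to 265 in the other wild-type libraries, Psmc3 389 against 249 to 270, Psmc4 302 against 167 to 184, Psmc5 223 against 151 to 162, Psmd7 315 against 236 to 248, Psmd12 208 against 137 to 144, Psma7 513 against 321 to 351 and Psma8 19.7 against 10.5 to 11.7. It is also the deepest library and the one with the most dissociation-induced RNA, whose part in these values was not tested. Yy1-/- Smc3+/- replicate 1 was high for Psmc4, with 296 CPM against 230 to 241, and for Psmd12, with 265 against 223 to 225. Yy1-/- replicate 1 was high for Psme2, with 669 CPM against 373 to 419, and Yy1+/+ replicate 4 for Psmb9, with 224 against 167 to 173.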

How the results depend on the processing

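Of the proteasome genes called, 13 of 26 in Yy1-/- Smc3+/- and 18 of 31 in Yy1-/- passed under all 22 alternatives, and no called gene changed sign. The number called higher in Yy1-/- Smc3+/-, 24, ranged from 13 to 28 when libraries were left out singly and was 13 without the 3 libraries with Yy1 reads, where fewer libraries were fitted. The number called higher in Yy1-/-, 30, ranged from 23 to 35. The number called lower in Yy1-/- Smc3+/-, 2, was 4 on log2(TPM + 1) and on log2(TPM + 0.1). The number called lower in Yy1-/-, 1, was 4 on both TPM scales, 0 with only the 2 genotypes fitted, 3 without the 3 libraries with Yy1 reads, 0 without Yy1-/- replicates 1 and 2, and 0 to 2 when libraries were left out singly (0 without Yy1-/- replicate 2, 2 without Yy1-/- replicate 4). The ratio of summed levels to Yy1+/+ was 1.22 in Yy1-/- Smc3+/- and 1.3 in Yy1-/- in TPM, and 1.33 and 1.49 in CPM; the cause was not tested. Subunit ratios kept their direction, from -0.94 to -0.22 against Yy1+/+ on the log2 scale. No paired analysis was possible because the labels number no replicates; the numbers 1 to 4 used here follow the order of deposit and tie no library to one of another genotype. The lowest count of a tested proteasome gene in a library was 15, for Psma8 in Yy1-/- replicate 1.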
